A study of Mus musculus with 12 samples.

Results

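The genes described here are the transcription factor Atf4 and 34 genes around it: stress-response genes, enzymes that make serine, glycine, asparagine, proline and cysteine, enzymes of one-carbon metabolism, amino acid transporters and enzymes that handle glutamate. The 35 genes were given as a list of symbols, and all 35 were found among the 45703 genes of both deposited expression tables. They were read in 12 RNA-seq libraries of mouse CD4+ T cells, 3 in each of 4 groups: wild-type Th17, GLUT3-deficient Th17, wild-type Th1 and GLUT3-deficient Th1. All groups were C57BL/6 by the labels and were activated through CD3 and CD28 as naive T cells, with cytokines that drive either lineage, for 3 days in culture. The deficient groups carried Slc2a3-fl/fl and Cd4-cre, so that the glucose transporter gene Slc2a3 is removed in cells that have expressed Cd4, which in the mouse includes CD8 T cells as well as CD4 T cells. The labels give no Cre or floxed allele for the wild-type groups, and do not say whether replicates came from separate mice. P-values therefore speak only of the spread from library to library, part of which may be technical.

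ATF4 is a transcription factor whose messenger RNA is translated better when the initiation factor eIF2 is phosphorylated, which happens under amino acid shortage, unfolded protein or other stress. It then binds, often with a C/EBP partner, to a composite site called the C/EBP-ATF response element, and raises genes that make or import amino acids. In activated T cells the same genes also depend on mTORC1 signalling, and serine-derived one-carbon units feed the purine and thymidylate synthesis of dividing cells. ATF4 is controlled largely at translation, so that its messenger RNA level does not give its protein level.

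Promoter sequences were available for 30 of the 35 genes from RefSeq (GRCm38.p6, 250 bases before to 50 bases after the annotated start). The core of the element, TGATGCAA on either strand, was present in 5 of the 30 genes (16.7%: Chac1, Slc7a11, Slc1a4, Pycr1 and Got1). It was present in 1.03% of all 27025 genes with a promoter sequence and in 0.832% of the 9494 of them tested over the 12 libraries. The looser form TGATGNAA, which includes the core, was present in 7 of 30 (23.3%, with Asns and Trib3 added), against 4.51% of all these genes and 2.86% of the tested ones. The list was drawn up around ATF4 and its targets, so a higher share in it is no independent result. Of the 7 carriers, Asns, Pycr1 and Got1 were lower in GLUT3-deficient cells of both lineages. Trib3 was lower in deficient Th17 cells and Chac1 higher in deficient Th1 cells. Slc7a11 and Slc1a4 passed the genotype test of neither lineage in the main fits. The matches of Slc1a4 (from -4) and Trib3 (from 14) do not lie wholly before the start and are not shown. The windows around the matches of the 5 other genes are given below. Each is written 5′ to 3′ along the gene, with the matched bases in capitals, and a match on the opposite strand reads TTGCATCA. Positions are counted from the base before the start, which is -1.
Asns (chr6:7693210-7693272, minus strand, match from -23): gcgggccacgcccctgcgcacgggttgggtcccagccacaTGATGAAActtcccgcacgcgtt
Pycr1 (chr11:120643804-120643891, minus strand, match from -103): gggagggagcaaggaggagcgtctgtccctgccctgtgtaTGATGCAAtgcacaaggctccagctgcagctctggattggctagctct
Got1 (chr19:43524660-43524747, minus strand, match from -102): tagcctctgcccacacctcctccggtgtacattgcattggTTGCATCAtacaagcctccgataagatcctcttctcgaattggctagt
Chac1 (chr2:119351009-119351096, plus strand, match from -193): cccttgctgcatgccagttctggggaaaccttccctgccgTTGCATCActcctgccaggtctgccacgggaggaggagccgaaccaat
Slc7a11 (chr3:50443614-50443719, minus strand, matches from -66 and -47): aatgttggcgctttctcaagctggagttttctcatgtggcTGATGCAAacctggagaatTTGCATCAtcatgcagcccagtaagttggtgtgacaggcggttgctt
The Slc7a11 promoter carried a match on each strand. Its RefSeq start lies inside the longer gene model of the deposited tables (chr3:50364936-50499087). A match of letters is a description of the sequence, and no binding was measured.

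Slc2a3 (GRCm38.p6 chr6:122727809-122802363, minus strand) was read first as a check of the genotypes. Wild-type libraries held 379, 109 and 44.6 TPM (a length-corrected share of a library's reads) in Th17 cells and 398, 95.5 and 64.7 TPM in Th1 cells. Deficient libraries held 5.14, 18.8 and 3.31 TPM and 6.79, 4.49 and 7.97 TPM, below every wild-type library of their lineage. The reads recovered from the TPM values numbered 16596283 to 28496606 per library. Library 2 of the deficient Th17 group stood apart. Each library was set against the mean of the remaining libraries of its group over all tested genes. The median absolute difference of library 2 was 0.62 on the log2 scale, against 0.136 to 0.424 in the other 11 libraries. Th17 results of the 35 genes are therefore also given without deficient library 2 where it moved the log2 fold change by more than 1.5 times or changed the call. CD4 T cell markers summed to 7199 to 8487 TPM in wild-type and 7220 to 10280 TPM in deficient Th17 libraries, and to 6956 to 7895 and 9477 to 10340 TPM in Th1 libraries, where 5 of 7 were called higher. The 4 Th1 markers summed to 780.6 to 1350 TPM in wild-type and 7205 to 9113 TPM in deficient Th1 libraries (3 called higher and 1 lower), and to 44.1 to 69.7 and 96.5 to 380.1 TPM in Th17 libraries (1 higher). The 5 Th17 markers summed to 660.1 to 1186 and 473 to 657 TPM in Th17 libraries (0 called), and to 20.1 to 22.3 and 9 to 27.6 TPM in Th1 libraries (3 higher and 2 lower). Some markers of other cells were higher in the deficient libraries. The 4 gamma delta T cell constant-region genes summed to 17.3 to 20.1 TPM in wild-type and 165 to 255 TPM in deficient Th17 libraries, and to 13.7 to 33.3 and 171 to 268 TPM in Th1 libraries, with all 4 called higher in both lineages. Of the other lists, 2 of 6 CD8 and NK cell, 3 of 5 myeloid, 2 of 6 red cell and platelet and 1 of 5 B cell genes were called higher in deficient Th17 libraries. In Th1 libraries 4 of 6, 2 of 3, 2 of 6 and 0 of 5 were called higher, and 2 of the 6 CD8 and NK cell genes lower. Over all tested genes 4.6% were called higher and 2.7% lower in Th17 cells, and 17.6% and 13.7% in Th1 cells. The B cell sums overlapped between genotypes, at 113.5 to 152.8 and 131.5 to 198.2 TPM in Th17 libraries. In Th1 libraries they were 88.05 to 111.9 TPM in wild-type and 68.35 to 474.7 TPM in deficient ones. Immediate early genes summed to 1555 to 1768 TPM in wild-type and 3067 to 3585 TPM in deficient Th17 libraries, and to 1162 to 1533 and 3384 to 4040 TPM in Th1 libraries. No marker was at 0 in every library. The part of these shifts in the results below was not tested, and in bulk RNA fewer cells of a type and less RNA per cell cannot be told apart.

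In both lineages more of the 35 genes were lower than higher in GLUT3-deficient cells. The list was chosen with earlier results of these data known. Its shares beside those of all genes are therefore a description and no independent test. In Th17 cells 11 of the 35 genes fell at an adjusted p below 0.05 (limma on log2(TPM + 1), Benjamini-Hochberg over 13823 genes) and 0 rose, where 2.7% of all tested genes were called lower and 4.6% higher. In Th1 cells 14 of the 34 tested genes fell and 2 rose, where 13.7% of 13487 genes were called lower and 17.6% higher. The glycine transporter gene Slc6a9 was too low for testing in Th1 cells. The median log2 fold change of the members was -0.64 in Th17 and -0.55 in Th1 cells, against 0.04 and 0.03 over all tested genes. The fold change was below 0 for 27 of 35 genes in Th17 cells (77.1%, against 47.5% of all genes) and for 27 of 34 in Th1 cells (79.4%, against 47.6%).

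Counted by levels alone, every deficient Th17 library was below every wild-type one for 17 of the 35 genes, against 18.2% of all genes, and above for 2, Sesn2 and Slc7a11, against 18.5%. In Th1 cells the counts were 19 below, against 20.8%, and 5 above, against 26.3%, of 34. The 5 were Chac1, Glul, Sesn2, Slc7a11 and Tyms. Of the 34 genes tested in both lineages, 9 fell in both (Asns, Pycr1, Phgdh, Psat1, Psph, Shmt2, Mthfd2, Cth and Got1), where 2.11% of 13070 genes did. Levels were lower without overlap in both for 15 of 34, against 12.7% of all genes. The plot of levels by library shows the 35 genes ordered by role.

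**Figure D1:**
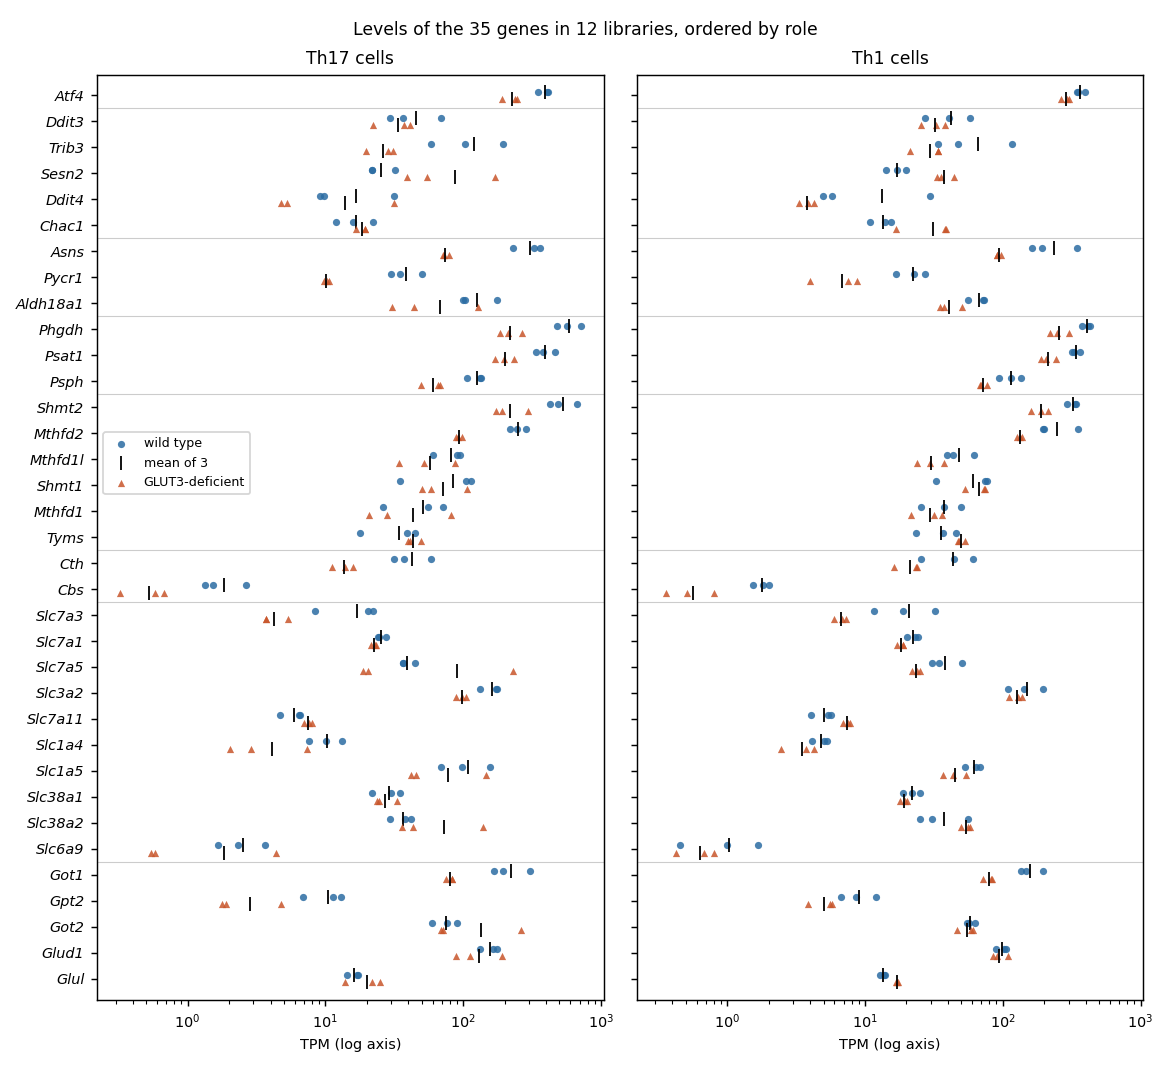
TPM (log axis) of the 35 genes in the 12 libraries, with wild type as circles, GLUT3-deficient as triangles and the mean of 3 libraries as a bar, for Th17 cells on the left and Th1 cells on the right. Asns, Phgdh, Psat1, Shmt2 and Mthfd2 combine high levels with separate genotypes in both lineages, and 1 deficient Th17 library lies far to the right for Slc7a5, Got2 and Sesn2.

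Removing single libraries changed the Th17 count more than the Th1 count. Without the library that stood apart 19 of 35 genes fell in Th17 cells, 8 more than with it: Aldh18a1, Cbs, Gpt2, Slc1a4, Slc1a5, Slc6a9, Slc7a3 and Slc7a5 were added and all 11 kept their call. Of all genes tested in that fit 8.44% were called lower and 7.76% higher. Leaving out any other Th17 library left 1 to 5 falling genes, where 0.111% to 0.947% of all tested genes fell, and 7 to 15 were left in Th1 cells, where 9.12% to 15.1% of all genes fell. With no filter on low TPM, where more genes are tested, the Th17 calls of Atf4, Trib3, Psat1, Psph, Shmt2 and Cth and the Th1 calls of Chac1, Cth, Gpt2, Mthfd2 and Slc7a5 were lost. Those of Atf4 and Psph in Th17 cells were also lost with voom or another scaling, and those of Aldh18a1, Cth, Gpt2, Slc7a5 and Sesn2 in Th1 cells with all 12 libraries in the fit. With the replicate number as a block, 14 genes fell in Th17 cells, where 3.65% of all genes fell, and Sesn2 rose (adjusted p = 0.0303, limma): Atf4 lost its call (adjusted p = 0.062), and Aldh18a1, Gpt2, Slc1a4 and Slc7a3 gained one.

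Atf4 itself (chr15:80255184-80257545, plus strand) was among the most abundant of the 35 messages. Wild-type Th17 libraries held 406, 416 and 351 TPM and deficient ones 237, 191 and 247 TPM, against 396, 346 and 349.8 and 294, 266 and 303 TPM in Th1 libraries. The genotypes did not overlap in either lineage. Atf4 fell in Th17 cells (log2 fold change -0.80, SE 0.19, adjusted p = 0.0472, limma), from 391 ± 34.9 to 225 ± 29.6 TPM (SD, n = 3). In Th1 cells the difference was -0.34 (SE 0.13, adjusted p = 0.0791, limma) and did not pass. The Th17 call was close to the threshold and was lost without any library other than replicate 2 of the deficient group (adjusted p up to 0.207).

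The stress-response targets did not move together. Trib3, a pseudokinase that binds AKT and ATF4, (chr2:152337425-152344060, minus strand) stood at 196, 104 and 58.3 against 28.3, 30.8 and 19.6 TPM in Th17 libraries. All 3 wild-type values were above all 3 deficient ones, and Trib3 fell (log2 fold change -1.995, SE 0.43, adjusted p = 0.0386, limma). Th1 libraries held 116, 47.7 and 34.1 against 34.1, 21.2 and 33.8 TPM, with the lowest wild-type library next to the highest deficient one (log2 fold change -0.96, adjusted p = 0.101, limma). The Th17 call of Trib3 was lost when any library but deficient replicate 2 was left out (adjusted p up to 0.15).

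Sesn2, a leucine-binding inhibitor of mTORC1, went the other way (chr4:132492804-132510456, minus strand). Its levels were 19.9, 17.2 and 14.3 TPM in wild-type and 33.2, 35.6 and 44.3 TPM in deficient Th1 libraries, and 21.8, 31.8 and 22 and 55, 169 and 38.9 TPM in Th17 libraries. Deficient libraries were the higher ones in both lineages. Sesn2 rose in Th1 cells (log2 fold change 1.09, SE 0.18, adjusted p = 0.00228, limma). In Th17 cells the log2 fold change was 1.49 with an adjusted p of 0.133, and 0.87 with an adjusted p of 0.0505 without the library at 169 TPM (limma).

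Chac1 encodes an enzyme that degrades glutathione and is a late target of ATF4 and CHOP (chr2:119351242-119354326, plus strand). It rose in Th1 cells, from 13.9, 15.5 and 10.9 to 37.8, 16.8 and 38.5 TPM (log2 fold change 1.07, SE 0.31, adjusted p = 0.0274, limma). Deficient replicate 2, the lowest of its group, lay close to the wild-type range, and the call was lost without deficient replicate 1 or 3 or wild-type replicate 3 (adjusted p up to 0.11). In Th17 cells the genotypes overlapped, at 12, 22.1 and 16 and 19.2, 16.8 and 19.5 TPM.

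Ddit3, which encodes the stress transcription factor CHOP, was between 22.3 and 69.1 TPM over the 12 libraries. Its genotypes overlapped in both lineages (log2 fold change -0.37 in Th17 and -0.34 in Th1 cells, adjusted p = 0.585 and 0.384, limma), and without deficient replicate 2 the Th17 difference was -0.10. Ddit3 shares annotated bases with Mars1 and Mbd6, and these libraries do not mark the strand. Ddit4, an inhibitor of mTORC1 upstream of TSC, varied widely between replicates: 31.3, 9.12 and 9.76 TPM in wild-type and 5.3, 31.4 and 4.78 TPM in deficient Th17 libraries, and 29.4, 5.72 and 4.93 and 3.32, 3.83 and 4.28 TPM in Th1 libraries. A single library in 3 of the 4 groups was several times higher than the rest of its group, and Ddit4 passed neither test (adjusted p = 0.702 and 0.134, limma). Its Th17 log2 fold change was -0.53 with all libraries and -1.33 without deficient replicate 2 (adjusted p = 0.093, limma).

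Asns, asparagine synthetase, fell in both lineages (chr6:7675165-7693209, minus strand). Wild-type Th17 libraries held 364, 325 and 230.2 TPM and deficient ones 72.7, 79.3 and 71.1 TPM. The Th1 libraries held 346, 192 and 164 and 90.8, 91.3 and 97.2 TPM. The 6 deficient libraries lay within 71.1 to 97.2 TPM, while the wild-type ones spread from 164 to 364 TPM. The mean fell 4.12-fold in Th17 (log2 fold change -2.003, SE 0.22, adjusted p = 0.00489, limma) and 2.52-fold in Th1 cells (-1.24, SE 0.25, adjusted p = 0.00619, limma). Asns was the only member whose Th17 call held under every alternative run.

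Genes of proline synthesis were lower too. Pycr1, a mitochondrial enzyme of the last step from glutamate to proline, (chr11:120638998-120643748, minus strand) stood at 35, 50.2 and 30.1 against 10.2, 10.6 and 9.71 TPM in Th17 and at 22.7, 27.1 and 16.8 against 7.57, 4.01 and 8.7 TPM in Th1 libraries. The genotypes were separate in both lineages. Pycr1 fell by 1.79 on the log2 scale in Th17 (SE 0.26, adjusted p = 0.0121, limma) and by 1.61 in Th1 cells (SE 0.28, adjusted p = 0.00273, limma). Aldh18a1, the enzyme of the first steps of that pathway, fell in Th1 cells from 71.6, 73.3 and 56.1 to 35.1, 37.1 and 50.5 TPM (log2 fold change -0.70, SE 0.19, adjusted p = 0.0207, limma). Th17 libraries held 99.5, 176 and 103 against 44.2, 128 and 30.4 TPM, with only deficient replicate 2 inside the wild-type range. Its Th17 log2 fold change was -1.11 (adjusted p = 0.237), -1.70 without that library (adjusted p = 0.0095) and past the threshold with the block (adjusted p = 0.0479, limma). The Th17 call of Pycr1 was lost without deficient replicate 1 or wild-type replicate 2 or 3 (adjusted p up to 0.079), and the Th1 call of Aldh18a1 without deficient replicate 1 or 2 or wild-type replicate 2 (up to 0.0915).

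All 3 enzymes that make serine from the glycolytic intermediate 3-phosphoglycerate fell in both lineages, and no library of one genotype reached into the other. Phgdh, the first and committing enzyme, (chr3:98313171-98339969, minus strand) stood at 479, 714 and 568 against 211, 267 and 184 TPM in Th17 and at 426, 413 and 379 against 222, 249.5 and 301 TPM in Th1 libraries. Psat1, the transaminase of the next step, (chr19:15905123-15925059, minus strand) stood at 336, 467 and 379 against 197, 233 and 172 TPM and at 366, 319.9 and 326 against 190.3, 204 and 245 TPM. Psph, the phosphatase that releases serine, (chr5:129765558-129787443, minus strand) stood at 107, 133 and 135 against 65.2, 49.2 and 68.3 TPM and at 136, 94.4 and 114 against 69.1, 68.8 and 76.9 TPM. Deficient Th17 and deficient Th1 levels overlapped for Phgdh and Psat1, while wild-type Phgdh was higher in each Th17 than in each Th1 library. The log2 fold changes in Th17 cells were -1.40, -0.97 and -1.03 (SE 0.23, 0.21 and 0.21; adjusted p = 0.0165, 0.0378 and 0.033, limma). In Th1 cells they were -0.67, -0.67 and -0.66 (SE 0.15, 0.14 and 0.17; adjusted p = 0.00992, 0.00838 and 0.0159, limma). Psph shares annotated bases with the abundant chaperonin gene Cct6a, whose reads cannot be told apart by strand here. In Th17 cells each of these calls was lost without deficient replicate 1 or 3 or wild-type replicate 2 or 3, and those of Psat1 and Psph also without wild-type replicate 1 (adjusted p up to 0.098, 0.176 and 0.164). In Th1 cells that of Phgdh was lost without deficient replicate 1 and that of Psph without deficient replicate 1 or 2 (adjusted p up to 0.0557 and 0.0679).

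Among the one-carbon enzymes 2 of the 3 mitochondrial ones fell in both lineages, and the 3 others, Shmt1, Mthfd1 and Tyms, passed no test. Shmt2, which splits serine into glycine and a one-carbon unit in mitochondria, (chr10:127517123-127522444, minus strand) stood at 429, 676 and 489 against 192, 295 and 172 TPM in Th17 and 339, 334 and 295 against 160.4, 190.4 and 213 TPM in Th1 libraries. Mthfd2, the mitochondrial dehydrogenase and cyclohydrolase that follows, (chr6:83305704-83326011, minus strand) stood at 285, 247 and 217 against 92.4, 97.9 and 89.5 TPM and 350.4, 196 and 199.8 against 128, 133 and 138 TPM. Both were separate between genotypes in both lineages. Shmt2 fell by 1.28 and 0.78 on the log2 scale in Th17 and Th1 cells (SE 0.28 and 0.15; adjusted p = 0.0369 and 0.00467, limma). Mthfd2 fell by 1.40 and 0.84 (SE 0.18 and 0.22; adjusted p = 0.00799 and 0.02, limma). Mthfd1l, which releases formate from mitochondria, had log2 fold changes of -0.57 and -0.65 and passed neither test (adjusted p = 0.371 and 0.054, limma), and was at -0.92 in Th17 cells without deficient replicate 2 (adjusted p = 0.0541, limma). The Th17 call of Shmt2 was lost without any library but deficient replicate 2 (adjusted p up to 0.16), that of Mthfd2 without deficient replicate 1 or wild-type replicate 2 (up to 0.0713), and its Th1 call without any one deficient library (up to 0.068).

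Shmt1, the cytosolic counterpart of Shmt2, stood at 34.9, 113 and 105 against 58.6, 107 and 50.01 TPM in Th17 and 32.6, 74.1 and 77 against 53.4, 74 and 72.7 TPM in Th1 libraries. Wild-type replicate 1 was the lowest of its group by a wide margin in both lineages, and the genotypes overlapped. Mthfd1, the cytosolic folate enzyme with 3 activities, ranged from 20.9 to 81.6 TPM, both ends being deficient Th17 libraries. Without deficient replicate 2 the Th17 log2 fold change of Shmt1 went from -0.14 to -0.46 and that of Mthfd1 from -0.36 to -0.93, and neither passed (adjusted p = 0.5302 and 0.1403, limma). Tyms, thymidylate synthase, had log2 fold changes of 0.44 and 0.52 (adjusted p = 0.476 and 0.114, limma). Its 3 deficient Th1 libraries (47.6, 53 and 47.9 TPM) were all above the wild-type ones (23.6, 36.5 and 45.9 TPM).

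Both enzymes that pass sulfur from homocysteine to cysteine were lower. Cth, cystathionine gamma-lyase, (chr3:157894248-157925081, minus strand) stood at 37, 58.9 and 31.4 against 15.8, 11.1 and 13.9 TPM in Th17 and 61, 44.5 and 25.6 against 23.5, 16.3 and 24 TPM in Th1 libraries. The genotypes were separate in both, and Cth fell by 1.53 and 0.94 on the log2 scale (SE 0.30 and 0.30; adjusted p = 0.0277 and 0.042, limma). Cbs, cystathionine beta-synthase, (chr17:31612623-31637233, minus strand) was low, at 1.82, 1.55 and 2 TPM in wild-type and 0.514, 0.362 and 0.803 TPM in deficient Th1 libraries and at 1.53, 2.67 and 1.34 and 0.677, 0.583 and 0.323 TPM in Th17 libraries. Its values did not overlap between genotypes, and the fall passed the test in Th1 cells (log2 fold change -0.84, SE 0.17, adjusted p = 0.00647, limma). In Th17 cells the log2 fold change of Cbs was -0.88 (adjusted p = 0.0718, limma), and -0.91 (adjusted p = 0.0458) without deficient replicate 2. At these levels the log2(TPM + 1) scale understates the change: the means of Cbs differed 3.5-fold and 3.19-fold. The Th17 call of Cth was lost without any library but deficient replicate 2 (adjusted p up to 0.13), and its Th1 call without any but wild-type replicate 3 (up to 0.127).

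**Figure D2:**
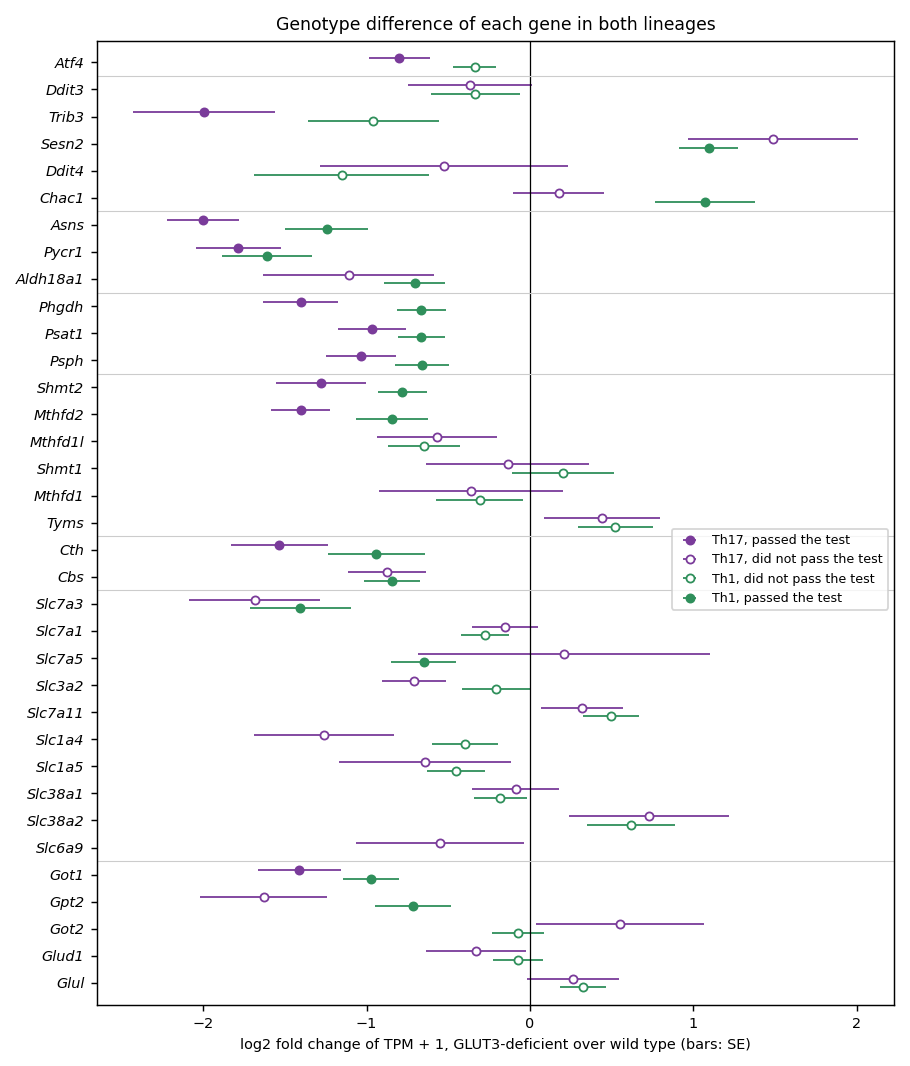
Log2 fold change of TPM + 1 (GLUT3-deficient over wild type, bars are standard errors) of the 35 genes in Th17 and Th1 cells, filled where the test was passed. Asns, Pycr1, the serine synthesis genes, Shmt2, Mthfd2, Cth and Got1 lie left of 0 and are filled in both lineages, Sesn2 lies right of 0 in both, and Slc7a5 in Th17 cells has the widest bar.

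The transporters were mixed. Slc7a3, a carrier of the cationic amino acids arginine and lysine, (chrX:101079146-101090452, minus strand) stood at 32, 19 and 11.7 against 6.8, 5.96 and 7.29 TPM in Th1 libraries and at 22.2, 20.5 and 8.4 against 3.72, 5.34 and 3.71 TPM in Th17 libraries. All wild-type values were above all deficient ones. It fell in Th1 cells (log2 fold change -1.41, SE 0.31, adjusted p = 0.00862, limma), and in Th17 cells its -1.69 had an adjusted p of 0.0503, 0.0251 with the block and 0.0185 without deficient replicate 2. Slc7a1, the related carrier, was steady at 17.2 to 27.7 TPM in all 12 libraries (log2 fold change -0.15 and -0.28), lower in deficient libraries of both lineages without overlap and past neither test.

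Slc7a5, the light chain of the main importer of leucine and other large neutral amino acids in activated T cells, (chr8:121881146-121907686, minus strand) gave a result that 1 library decided. Wild-type Th17 libraries held 36.6, 44.7 and 36.3 TPM, and deficient ones 20.4, 232 and 18.8 TPM. Deficient replicate 2 was above, and the other two below, every wild-type library. The log2 fold change was 0.21 with all libraries (adjusted p = 0.911) and -0.96 without replicate 2 (adjusted p = 0.0166, limma). In Th1 cells Slc7a5 fell from 50.2, 34.2 and 30.6 to 23.7, 21.9 and 25.1 TPM (log2 fold change -0.65, SE 0.20, adjusted p = 0.0365, limma), a call lost without any one deficient library or wild-type replicate 2 (adjusted p up to 0.121). Slc3a2, the heavy chain that carries it to the membrane, stood at 173, 176 and 133 against 106, 89.3 and 97.4 TPM in Th17 cells, without overlap, and passed neither test (log2 fold change -0.71 and -0.21, adjusted p = 0.073 and 0.502, limma).

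The cystine importer Slc7a11 is a well-known ATF4 target, and it was higher rather than lower in every deficient library. It stood at 4.67, 6.48 and 6.52 against 7.58, 7.97 and 7.03 TPM in Th17 and at 4.03, 5.67 and 5.37 against 6.95, 7.82 and 7.55 TPM in Th1 libraries (log2 fold change 0.32 and 0.50; adjusted p = 0.472 and 0.0549, limma), past neither test. Slc7a11 passed in Th1 cells only with voom on the recovered reads (adjusted p = 0.041, limma-voom). Slc1a4, a carrier of alanine, serine and cysteine, stood at 10.03, 13.1 and 7.65 against 2.87, 7.38 and 2.04 TPM in Th17 cells, without overlap (log2 fold change -1.26, adjusted p = 0.127, 0.0484 with the block and 0.0068 without deficient replicate 2, limma). The same gene in Th1 cells had a log2 fold change of -0.40 (adjusted p = 0.164).

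Of the glutamine carriers, Slc1a5 and Slc38a1 overlapped between genotypes in both lineages (log2 fold change -0.64 and -0.09 in Th17, -0.45 and -0.18 in Th1 cells). Without deficient replicate 2, Slc1a5 was at -1.22 (adjusted p = 0.0379, limma) and Slc38a1 at -0.24 in Th17 cells. Slc38a2, which is induced by amino acid shortage in many cells, stood at 41.9, 37.8 and 29.6 against 43.5, 138 and 36.2 TPM and at 55.6, 24.9 and 30.8 against 58, 49.4 and 55.9 TPM (adjusted p = 0.394 and 0.11, limma). Its Th17 log2 fold change was 0.73 with all libraries and 0.14 without deficient replicate 2. The genotypes overlapped in both lineages, in Th1 cells through the high wild-type replicate 1, without which Slc38a2 rose (log2 fold change 0.945, adjusted p = 0.00239, limma). Slc6a9, a glycine carrier, was low in all libraries, at 0.4224 to 4.37 TPM, with its highest value in deficient Th17 replicate 2. In Th17 cells its log2 fold change was -0.55 with that library (adjusted p = 0.542) and -1.15 without it (adjusted p = 0.0241, limma).

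Among the enzymes around glutamate, 1 cytosolic transaminase fell clearly. Got1, which moves nitrogen between glutamate and aspartate in the cytosol, (chr19:43499752-43524605, minus strand) stood at 306, 194 and 166 against 82.7, 82.8 and 74.8 TPM in Th17 and at 194, 135 and 146 against 71.4, 84.1 and 82.8 TPM in Th1 libraries. Deficient libraries of both lineages lay within 71.4 to 84.1 TPM, and all wild-type libraries were above that. Got1 fell by 1.41 and 0.97 on the log2 scale (SE 0.26 and 0.17; adjusted p = 0.0222 and 0.00313, limma). In Th17 cells the call was lost without deficient replicate 1 or 3 or wild-type replicate 2 or 3 (adjusted p up to 0.105), and in Th1 cells it held without any library.

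Gpt2, the mitochondrial alanine transaminase, stood at 12, 8.6 and 6.66 against 5.53, 3.87 and 5.78 TPM in Th1 and at 11.4, 13 and 6.93 against 1.89, 4.78 and 1.78 TPM in Th17 libraries. The genotypes were separate in both lineages. Gpt2 fell in Th1 cells (log2 fold change -0.72, SE 0.23, adjusted p = 0.0446, limma). It lost this call without any library but wild-type replicate 3 (adjusted p up to 0.159). Its larger Th17 difference of -1.63 (SE 0.39) had an adjusted p of 0.051, 0.0216 with the block and 0.0048 without deficient replicate 2. Got2, the mitochondrial aspartate transaminase, lay within the wild-type range in the deficient Th17 libraries (59.5, 90.1 and 75.8 against 70.9, 263 and 68.8 TPM) except replicate 2, and passed neither test. Its Th17 log2 fold change was 0.55 with replicate 2 and -0.08 without it. Glud1, glutamate dehydrogenase, and Glul, glutamine synthetase, passed neither test (log2 fold change -0.33 and 0.26 in Th17, -0.07 and 0.33 in Th1 cells). Without deficient replicate 2 they were at -0.64 and 0.499 in Th17 cells (adjusted p = 0.0675 and 0.1225, limma). Glul was higher in each deficient Th1 library (16.8, 17.1 and 17.4 TPM) than in any wild-type one (13.6, 12.8 and 14 TPM).

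No member passed the test of whether the genotype effect differed between Th17 and Th1 cells. In the model over all 12 libraries 0 of 35 genes were called, where 0.638% of 14579 genes were, and 2 (5.71%), Phgdh and Atf4, had an unadjusted p below 0.05, as did 6.38% of all genes. For Phgdh the Th17 effect was -0.74 below the Th1 effect on the log2 scale (95% interval -1.33 to -0.14, unadjusted p = 0.0189, adjusted p = 0.532, limma). For Atf4 the difference was -0.46 (-0.92 to -0.01, unadjusted p = 0.0464, adjusted p = 0.773), and for Asns -0.76 (-1.54 to 0.03, adjusted p = 0.814). The median difference over the members was -0.27, against 0.01 over all genes. After adjustment over all genes no difference between lineages was detectable for a member, which does not show that the effects were alike.

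Between lineages of the same genotype no member was called either. Of all genes 3.63% were called between wild-type Th17 and Th1 cells and 5.91% between deficient ones. Shmt2 had the smallest p in wild-type cells, at 531 ± 129 TPM in Th17 and 323 ± 24.1 TPM in Th1 cells (SD, n = 3; log2 fold change 0.69, unadjusted p = 0.00967, adjusted p = 0.143, limma). At an unadjusted p below 0.05 the members were close to the background: 6 of 35 (17.1%) against 14.6% of all genes in wild-type cells, and 6 of 35 against 20.6% in deficient ones. Gpt2 alone passed after adjustment, in deficient cells and only once deficient Th17 replicate 2 was left out (log2 fold change -1.08, adjusted p = 0.0361, limma). These comparisons depend on scaling: by median of ratios the median over all genes moved from 0.14 to 0.00 in wild-type and from 0.13 to -0.04 in deficient cells. The members' median then moved from 0.35 to 0.17 and from 0.04 to -0.10, and the called genes from 270 higher and 259 lower in Th17 to 217 and 366 in wild-type, and from 488 and 373 to 470 and 564 in deficient cells.

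Deficient Th17 replicate 2 differed from its group in part of the list. Relative to the mean of replicates 1 and 3, 12 of the 35 genes were more than 1 higher on the log2 scale and 0 more than 1 lower, against 26.1% and 4.1% of 13823 tested genes. The highest were Slc7a5 (3.50, an 11.8-fold difference in TPM), Ddit4 (2.42), Got2 (1.90), Sesn2 (1.85), and Slc6a9, Aldh18a1, Slc38a2, Slc1a5 and Mthfd1 (1.71 to 1.79). Asns, Pycr1, Mthfd2, Got1, Cbs and Slc7a1 were within 0.14 of the other replicates. The same library held the most gamma delta T cell, CD8 and NK cell, myeloid, and red cell and platelet marker RNA of its group (summed 254.6, 107.9, 64.9 and 122.8 TPM), and the most Th1 marker and immediate early RNA (380.1 and 3585 TPM). Its CD4 T cell and Th17 marker sums were the lowest of the group (7220 and 473 TPM). The red cell and platelet genes did not all follow their sum. The platelet gene Pf4 was highest in this library (45.4, 54 and 29.1 TPM in the deficient Th17 libraries). The globin genes Hbb-bs and Hbb-bt were highest in replicate 1 (19.2 and 11.2 TPM, against 13.2 and 10.2 TPM in replicate 2). The part of such RNA in these differences was not tested.

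**Figure D3:**
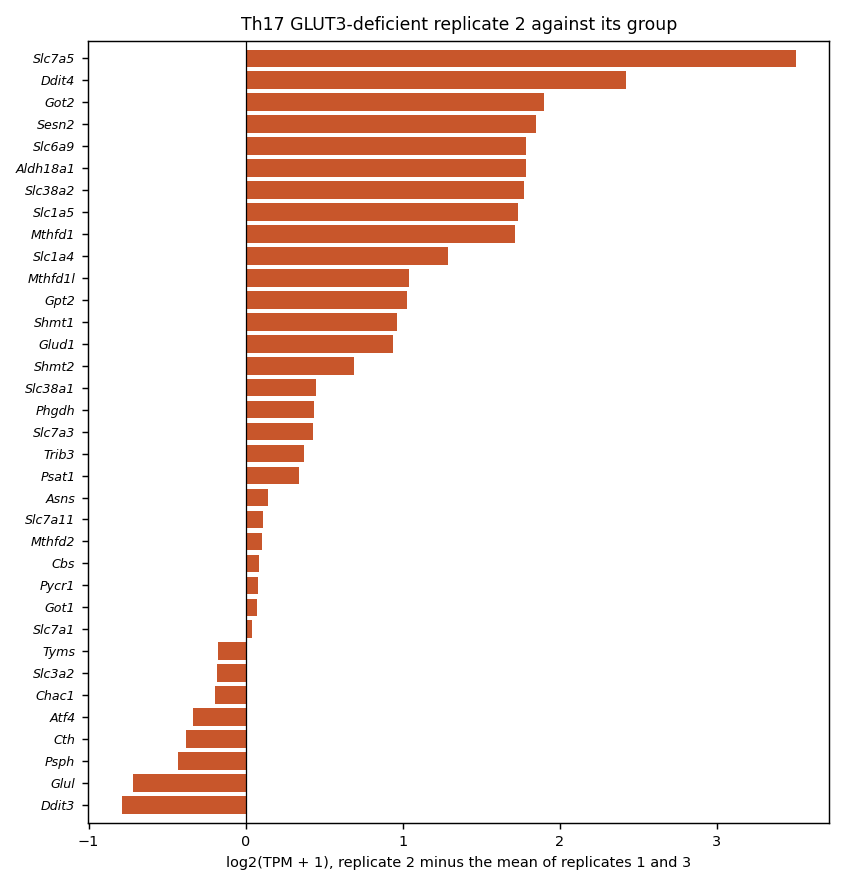
Difference in log2(TPM + 1) of the 35 genes between deficient Th17 replicate 2 and the mean of deficient Th17 replicates 1 and 3, sorted. The bars run from 3.50 for Slc7a5 to -0.79 for Ddit3, with Asns, Pycr1, Mthfd2 and Got1 near 0.

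Wild-type replicate 1 stood at the same end of its group in both lineages for 15 of the 35 genes, which was no more frequent than over all genes. Replicate 1 was the highest of the 3 wild-type libraries in Th17 and in Th1 cells for 9 members (Asns, Ddit3, Ddit4, Got1, Mthfd2, Slc38a2, Slc7a1, Slc7a3 and Trib3), or 25.7%, against 24.4% of 14579 genes. It was the lowest in both for 6 (Mthfd1, Shmt1, Slc1a5, Slc38a1, Slc7a11 and Tyms), or 17.1%, against 28.5% of all genes. Ddit4 in replicate 1 was 3.32 and 5.52 times the mean of replicates 2 and 3, Trib3 2.42 and 2.84 times, and Asns 1.31 and 1.95 times. Shmt1, Tyms and Mthfd1 in replicate 1 were at 0.319 to 0.587 of that mean. Slc2a3 was also highest in replicate 1, at 379 and 398 TPM, in both lineages. The labels do not say whether libraries of 1 number share a source.

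**Figure D4:**
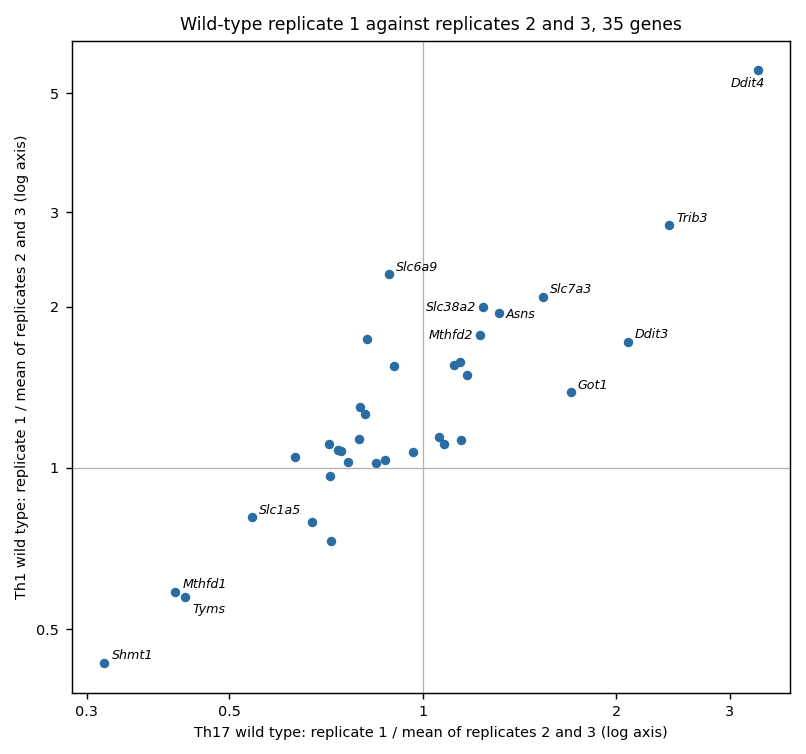
Level of each of the 35 genes in wild-type replicate 1 divided by the mean of wild-type replicates 2 and 3, in Th17 cells (x axis) and Th1 cells (y axis), both axes logarithmic. Ddit4, Trib3 and Ddit3 lie at the upper right and Shmt1, Tyms and Mthfd1 at the lower left.

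Other genes of these pathways were counted in 11 lists that lie in or next to them. Over all tested genes 2.7% were called lower and 4.6% higher in Th17 cells, and 13.7% and 17.6% in Th1 cells. The list counts are set against these shares without a test. In the list of serine and glycine synthesis 4 of 8 tested genes fell and 0 rose in each lineage, all 4 being members. In that of asparagine, proline, arginine and polyamine enzymes 2 of 16 fell in Th17 and 6 of 16 in Th1 cells. Its non-members Ass1, which makes argininosuccinate, Sat1, which acetylates polyamines, and Sms, spermine synthase, fell in Th1 cells (-1.03, -0.83 and -0.62 on the log2 scale; adjusted p = 0.00342, 0.00714 and 0.0224, limma). Of the methionine and transsulfuration genes 1 of 11 fell in Th17 cells, and 4 fell and 1 rose in Th1 cells. There Ahcy, which clears S-adenosylhomocysteine, and Adi1 of the methionine salvage pathway fell (-0.63 and -0.75), and Apip of the same pathway rose (0.62).

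Of the folate enzymes outside the 35 genes, Aldh1l1 rose in both lineages. Aldh1l1, which oxidizes formyl-tetrahydrofolate in the cytosol, stood at 0.857, 0.6 and 0.504 against 2.89, 8.67 and 2.89 TPM in Th17 and at 1.05, 1.14 and 0.856 against 3.61, 3.79 and 4.12 TPM in Th1 libraries. It rose in both lineages without overlap (log2 fold change 1.68 and 1.27; adjusted p = 0.0452 and 0.000611, limma). Of the folate and thymidylate genes as a whole 1 of 17 fell and 1 rose in Th17, and 1 of 16 fell and 2 rose in Th1 cells. Of 13 purine synthesis genes 0 were called in Th17 and 1 fell in Th1 cells, Impdh2 of guanine nucleotide synthesis (-0.67, adjusted p = 0.00812, limma).

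The list of the ATF4 and integrated stress response core had calls on both sides. In Th17 cells 2 of 24 genes fell (Atf4 and Trib3) and 1 rose, Xbp1 of the unfolded protein response (0.97, adjusted p = 0.0348, limma). In Th1 cells 3 of 23 fell and 5 rose, where 13.7% of all tested genes were called lower and 17.6% higher. Atf3, a stress-induced transcription factor that is also an immediate early gene, stood at 44.5, 23.4 and 17.9 against 77.7, 69.2 and 104 TPM in Th1 libraries and rose (1.596 on the log2 scale, adjusted p = 0.00488, limma). Eif4ebp1, an inhibitor of cap-dependent translation and ATF4 target, stood at 1295, 793 and 552 and 426, 357 and 476 TPM and fell (-0.99, adjusted p = 0.0263), as did Gadd45a (-0.66, adjusted p = 0.0277). Of the 15 genes of eIF2 kinases and eIF2 apparatus 0 were called in Th17 cells, and in Th1 cells the kinase gene Eif2ak2 rose (0.58) and Eif2b1 fell (-0.51).

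Aminoacyl tRNA synthetase genes, which ATF4 is known to raise, were mostly below wild type: the median log2 fold change of 22 was -0.49 in Th17 and -0.30 in Th1 cells. In Th17 cells 0 of 22 were called, and in Th1 cells 4 fell, among them Farsb, Yars and the synthetase complex gene Aimp1 (-0.59, -0.69 and -0.61; adjusted p = 0.016, 0.0201 and 0.00999, limma). In Th17 cells Yars was at -1.16 and Farsb at -0.78 with adjusted p just above the threshold (0.0502 and 0.0523, limma).

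Of the plasma membrane amino acid transporters 2 of 18 rose and 0 fell in Th17 cells, and 1 of 15 rose and 2 fell in Th1 cells. Slc16a10, a carrier of aromatic amino acids, rose in both lineages from at most 0.98 TPM to 3.52, 9.98 and 7.24 TPM in Th17 and 2.13, 2.26 and 2 TPM in Th1 cells (log2 fold change 2.12 and 1.05; adjusted p = 0.0163 and 0.00505, limma). Slc1a1, a carrier of glutamate and aspartate, stood at 0.876, 0.167 and 0.484 against 3.44, 5.76 and 2.97 TPM in Th17 and 1.03, 0.51 and 0.75 against 0.258, 0.133 and 0.559 TPM in Th1 libraries. It rose in Th17 cells (1.73, adjusted p = 0.0185, limma) and was the only gene of the 11 lists that passed the test of the difference between lineages (2.16, adjusted p = 0.0198, limma).

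Among glutamine, glutamate and transaminase enzymes 1 of 14 rose in each lineage, and 1 fell in Th17 and 4 in Th1 cells. The riser was Gfpt2, the glutamine-using entry enzyme of hexosamine synthesis, at 1.57, 2.45 and 2.11 against 22.8, 37.5 and 17.6 TPM in Th17 and 0, 0.233 and 0.402 against 3.7, 2.8 and 6.38 TPM in Th1 libraries (log2 fold change 3.09 and 2.08; adjusted p = 0.00485 and 0.000652, limma). Gclc, which starts glutathione synthesis, and Gls2, a glutaminase, fell in Th1 cells (-0.63 and -1.17; adjusted p = 0.0207 and 0.0375, limma). Of 26 genes of amino acid sensing and mTORC1, 1 fell in each lineage, and 0 rose in Th17 and 4 in Th1 cells. The one that fell was Castor1, a cytosolic arginine sensor that restrains mTORC1, from 78.6, 67.7 and 56.2 to 21.6, 17.6 and 16.2 TPM in Th17 and from 71.6, 88.4 and 62.1 to 22.8, 27 and 28 TPM in Th1 cells (-1.81 and -1.47; adjusted p = 0.00742 and 0.000524, limma). Rheb, the activator of mTORC1, and Akt1s1, an inhibitor within the complex, rose in Th1 cells (0.81 and 0.79; adjusted p = 0.0155 and 0.0077, limma).

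**Figure D5:**
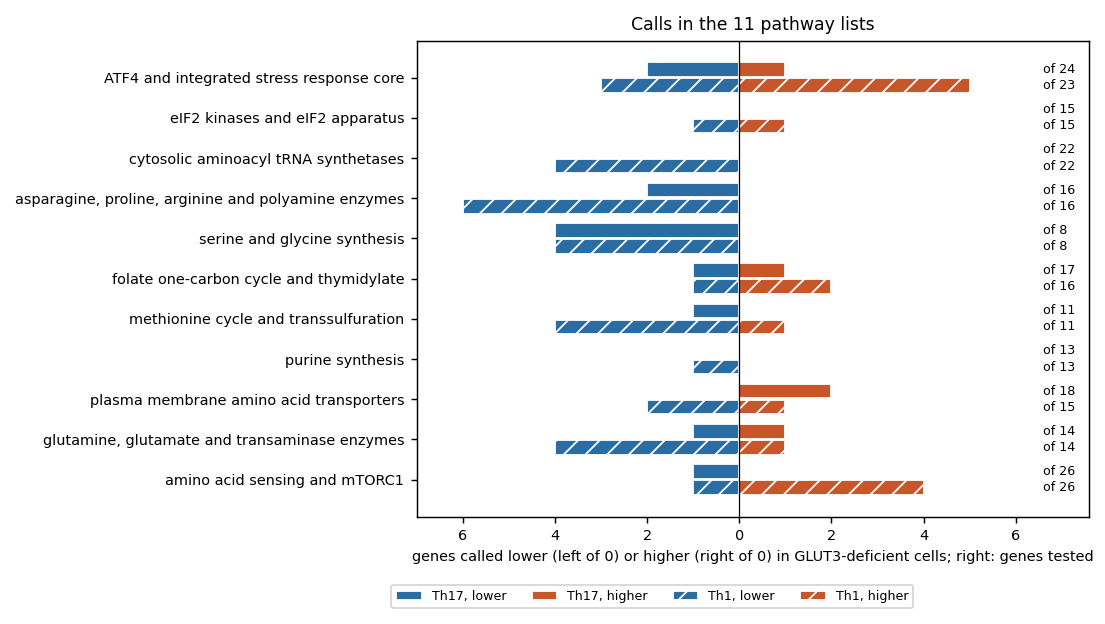
Number of genes called lower (left of 0) and higher (right of 0) in GLUT3-deficient cells in each of the 11 pathway lists, plain bars for Th17 and hatched bars for Th1 cells, with the number tested at the right. Serine and glycine synthesis and the asparagine, proline, arginine and polyamine enzymes have calls on the lower side alone in both lineages. The stress response core has calls on both sides.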

How the data were processed

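The 12 single-end libraries (3 in each of 4 groups, grouped and numbered by sample title) were made from total RNA with SMART-Seq v4 and Nextera XT, per the labels' protocols, and carry no strand information. Tools in the submitters' processing notes, which give no roles, are STAR 2.7.2b, DESeq2 1.24.0, featureCounts 1.6.4 from Subread, cutadapt and bcl2fastq 2.20.0.422, with the build GRCm38.p6. The authors deposited 1 table of TPM values per lineage, with 45703 genes, written with decimal commas and summing to 1000000 per library. Gene starts equalled RefSeq GRCm38.p6 starts for 45697 genes. TPM times exon length gave whole reads within 0.02 for 100% of values, 16596283 to 28496606 reads per library, so that 3 reads in 1 kb of exon are 0.190 to 0.437 TPM, which covers counting error only.

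A gene needed 1 TPM in at least 3 libraries of a fit and was tested with limma 3.58.1 in R 4.3.3 on log2(TPM + 1), two-sided, with a mean-variance trend and Benjamini-Hochberg adjustment over all tested genes at 0.05. Such fold changes understate changes of low genes. Genotypes were compared on the 6 libraries of a lineage, and lineages and the difference of genotype effects on all 12. Steps were tested on simulated data. The members, the 11 pathway lists and the marker lists (271 entries, all matched, 2 by an older symbol) were chosen with earlier results of these data known. All members are named, and of each list up to 3 other called genes with the smallest adjusted p.

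Alternatives were pseudocounts of 0.5 and 5, no filter, a filter of 5 TPM, median-of-ratios scaling, limma-voom on the recovered reads, other sets of libraries in the fit, a block for replicate number and leaving out each library. Deviations of same-numbered libraries from their group means correlated at 0.137, 0.409 and 0.230 between Th17 genotypes. Between wild-type Th17 and Th1 they correlated at 0.719, 0.256 and 0.532. Libraries of different numbers reached 0.105 and 0.281, the latter above the 0.256 of replicate 2. These numbers may therefore pair libraries, on this correlation alone. The main fits and their calls did not use a pairing, and the block was run only as an alternative. Between Th1 genotypes (0.157, 0.212 and -0.070) and between deficient lineages (0.218, -0.043 and -0.192) no such pattern was seen. Of the members 10 share annotated bases with another gene. One gene of the pathway lists is counted but not reported by name here.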

Additional observations from a re-analysis of the deposited data

How the results depend on the processing

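With 3 libraries a group, calls near the threshold depended on single libraries. The number of members that fell in Th17 cells was 11, 5 with no filter on low TPM and 1 to 19 with 1 library left out, and in Th1 cells 14, and 7 to 15 with 1 library left out. Members that rose numbered 0 in Th17 cells, 1 with the replicate block and 1 with all 12 libraries in the fit. In Th1 cells 2 rose, 1 with no filter, 1 with all 12 libraries and 1 to 3 with 1 left out. Members that fell in both lineages numbered 9, 4 with no filter and 1 to 14 with 1 left out. Over all genes the calls numbered 1009 in Th17 (2933 with all 12 libraries, 109 to 2158 with 1 left out), 4220 in Th1 (2568 and 2594 to 4587), 93 for the difference between lineages (21 to 171 with 1 left out), 529 between wild-type lineages (309 to 403) and 861 between deficient ones (449 to 1219, with 0 to 1 members called lower). With voom on the recovered reads 1268 genes were called in Th17 and 4547 in Th1 cells. The fold change of Slc7a5 in Th17 cells ran from -0.96 to 0.82 with 1 library left out. The block changed no member's call in the lineage comparisons or the difference between lineages. In Th1 cells, where the correlations showed no pairing of the genotypes by number, it gave 15 falling members. No cause of these changes was tested.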
